A study of Mus musculus with 12 samples.

Results

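The genes described here carry glucose through glycolysis and answer to low oxygen: transporters of glucose and lactate, the enzymes of the glycolytic chain, the enzymes that decide where pyruvate goes, and targets of the hypoxia-inducible factors. They were taken as a list of 35 symbols and matched to the rows of the deposited tables, which held a value in all 12 libraries for 56647 genes. All 35 were found, Aldoa with 2 rows, of which the one with 141408 counts over all libraries was used and the other held 5 counts. The count filter passed 31 of them, and Slc16a3, Adm, Car9 and Ankrd37 were too low to test.

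Heart muscle oxidises mainly fatty acids and lactate, and uses glucose more when oxygen runs short. Glucose enters through carriers of the Slc2a family, is phosphorylated by hexokinase and split to pyruvate, which is either reduced to lactate or passed to the pyruvate dehydrogenase complex of mitochondria. When oxygen falls, prolyl hydroxylases of the Egln family stop marking hypoxia-inducible factors for breakdown, and the factors then bind short elements with the core ACGTG or GCGTG and raise many glycolytic genes.

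All mice were wild type, and myocardial tissue was read by a 3′ RNA-seq assay derived from CEL-Seq2. The sham vehicle group (3 mice) carried labels of sham and of vehicle. The MI group (3 mice) had a left coronary ligation, which causes myocardial infarction, and the third group (4 mice) had infarcted myocardium to which NECA, 5′-(N-ethylcarboxamido)adenosine, a stable agonist of adenosine receptors, was delivered locally. The titles of the MI mice name no vehicle, so if they received none, an effect of NECA and one of the local delivery cannot be told apart, and the same holds for ligation and the missing vehicle. The sources used here do not give strain, age, sex, time after ligation or the piece of heart taken.

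One library per mouse was compared, with 0.96 to 1.33 M counts (M, 1e6). MI mice 2 and 3 each had a further library of 30.7 and 27.1 M counts. It was set aside because it was deeper and held values for a partly different set of gene rows. Levels are counts per 1e6 counts (CPM) after TMM scaling, and they compare mice within a gene, not genes with each other. Summed ventricular muscle markers, all 11 of which passed the filter, ran from 67410 to 95440 CPM in sham vehicle, 52670 to 79860 CPM in MI and 71790 to 84280 CPM in NECA-treated mice. A pair of libraries stood apart. Sham vehicle mouse 3 had 6008 CPM and MI mouse 3 had 3455 CPM of the 4 atrial markers, against at most 294.6 CPM in the other mice, and MI mouse 3 had 10330 CPM of the 8 fibroblast markers.

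Some members carry the core of the hypoxia response element close to their start. RefSeq promoter windows of GRCm38.p6, from 250 bases before to 50 after a start, were found for 33 members, in 50 windows, and none for Slc2a4 and Ndrg1. ACGTG or GCGTG on either strand was present in 39 of these 50 windows (78.0%), against 43.8% of all 32851 windows and 63.1% of the 9647 windows of tested genes. ACGTG was in 50% of the member windows and 19.6% of all, and GCGTG in 56.0% and 32.4%. The share of each motif alone was not taken over the windows of tested genes, where the share of either was higher than over all windows. Windows of the same gene can overlap and then count the same site again, as in Aldoa. The overlapping E-box CACGTG, which other factors bind, was in 10% and 7.15%. Tpi1, Pgam2 and Gpi1 had no match in these windows. A match of 5 letters describes the sequence and shows no binding. The stretches below belong to the member nearest to the threshold (Egln3), to members whose groups did not overlap in one of the comparisons (Ldha, Hk2, Pdk1), and to Pgk1, long used as a model hypoxia promoter. They are written 5′ to 3′ on the strand of the gene, and capitals mark the motif or its reverse complement.
Egln3, chr12:54204089-54204113, minus strand: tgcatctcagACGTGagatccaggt
Ldha, chr7:46845746-46845770, plus strand, within an E-box: gcccagcctaCACGTgggttcccgc
Ldha, chr7:46845760-46845784, plus strand: tgggttcccgCACGTccgctgggct
Hk2, chr6:82774492-82774516, minus strand: tgagcacatcCACGTcactgtccgg
Pdk1, chr2:71873212-71873236, plus strand: gcctacggggGCGTGgttccagcga
Pgk1, chrX:106186940-106186964, plus strand: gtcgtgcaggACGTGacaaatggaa

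No member rose or fell after ligation or with NECA at the threshold used, a Benjamini-Hochberg adjusted p under 0.05 over 9505 tested genes in edgeR's quasi-likelihood test. Of the 31 tested members, 0 passed in MI against sham vehicle mice, where 0.0736% of all genes did. It was also 0 members in NECA-treated MI against MI (0% of all genes), 0 in NECA-treated MI against sham vehicle (0.0105%) and 0 in all ligated against sham vehicle mice (0.105%), the last being the mean of both ligated groups minus sham vehicle. DESeq2 and limma also called 0 members in each. At an unadjusted edgeR p under 0.05 there were 3, 1, 1 and 2 members in that order, against 12%, 6.07%, 6.03% and 9.95% of all genes. The comparisons share mice and are not independent of each other.

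The folds after ligation were small and mostly below 0. In MI against sham vehicle mice 26 members had a fold below 0 and 5 above, with a median log2 fold change of -0.22, while 50.9% of all genes were below 0 and their median was -0.01. The 95% interval of the fold lay within 2-fold either way for 28 of the 31 members and 64.2% of all genes, the others being Egln3, Pfkfb1 and Pfkfb3, and within 1.5-fold for 9 members and 18.5% of all genes. Within 2-fold lay 29 members in each of the other comparisons, against 73.6% of all genes for NECA-treated MI against MI, 75.1% for NECA-treated MI against sham vehicle and 78.4% for all ligated. All ligated against sham vehicle mice gave 26 members below 0 and a median of -0.15, with 52.4% and -0.02 over all genes. NECA-treated MI against MI mice gave 12 members below 0 and 19 above and a median of 0.07, with 51.5% below 0 and a median of -0.01 over all genes. NECA-treated MI against sham vehicle mice gave 22 below 0, against 52.1% of all genes, and a median of -0.11. With library totals in place of TMM scaling, the medians of members and of all genes in MI against sham vehicle mice were -0.13 and 0.07, a difference of -0.21, as with TMM. The split between lower and higher folds depended on the scaling. For all ligated against sham vehicle mice, 22 of 31 members were below 0 with library totals and 16 on the deposited log2(TPM + 1) scale (median -0.03), in place of 26. For NECA-treated MI against sham vehicle mice they were 17 and 15 in place of 22. On the log2(TPM + 1) scale MI against sham vehicle had 21 in place of 26. The median of all genes moved too. Relative to it, the members for all ligated lay at -0.14 with library totals, -0.12 on log2(TPM + 1) and -0.13 with TMM. For NECA-treated MI against sham vehicle they lay at -0.10, -0.06 and -0.10.

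**Figure D1:**
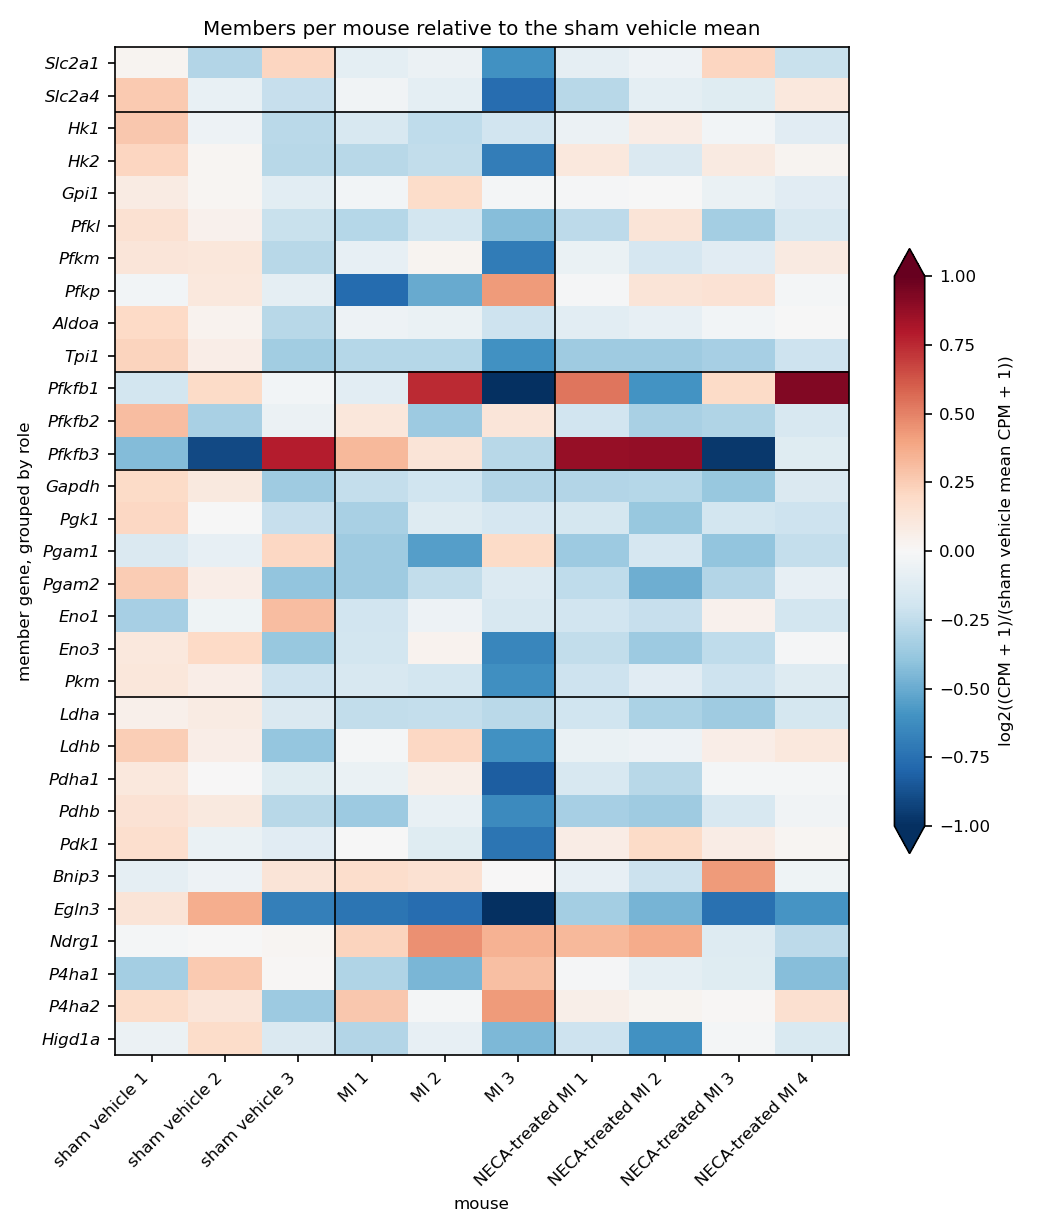
Each row is one of the 31 tested members, grouped by role, and each column a mouse; colour is log2 of CPM plus 1 over the sham vehicle mean plus 1, and the scale ends at 1 either way. Sham vehicle mouse 1 was the highest of 10 mice in 15 members, and MI mouse 3 the lowest in 14.

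These medians follow a few mice. Sham vehicle mouse 1 had the highest level of all 10 mice in 15 of 31 members, as it did in 13.2% of all genes. MI mouse 3 had the lowest level in 14 members, as it did in 21.1% of all genes. The median member lay at 0.12, 0.05 and -0.20 (log2, relative to the sham vehicle mean) in sham vehicle mice 1 to 3, at -0.16, -0.10 and -0.30 in MI mice, and at -0.16, -0.16, -0.12 and -0.12 in NECA-treated mice. Sham vehicle mouse 3 thus lay among the ligated mice, below MI mice 1 and 2 and every NECA-treated mouse, with only MI mouse 3 lower. Without MI mouse 3 the median fold of the members in MI against sham vehicle mice was -0.12 in place of -0.22, with 24 below 0. Without sham vehicle mouse 3 it was -0.31. For NECA-treated MI and for all ligated against sham vehicle mice it was then -0.17 and -0.23 in place of -0.11 and -0.15. Without sham vehicle mouse 1 the median folds of these 3 comparisons were nearer to none, at -0.16, -0.06 and -0.10. They then had 24, 18 and 20 members below 0. In NECA-treated MI against MI mice the median fold was -0.01 without MI mouse 3, with 18 members below 0 and 13 above. The ventricular muscle markers stood in a similar order, with 95440, 91350 and 67410 CPM in sham vehicle mice and 74550, 79860 and 52670 CPM in MI mice. Fibroblast markers had 685.6, 647.8 and 1689 CPM and 2100, 1416 and 10330 CPM, and macrophage markers ran from 232.6 to 463.7 CPM in sham vehicle and from 395.6 to 1051 CPM in MI mice. Their part in the members' levels was not tested, and fewer muscle cells and less RNA per muscle cell cannot be told apart in whole tissue.

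**Figure D2:**
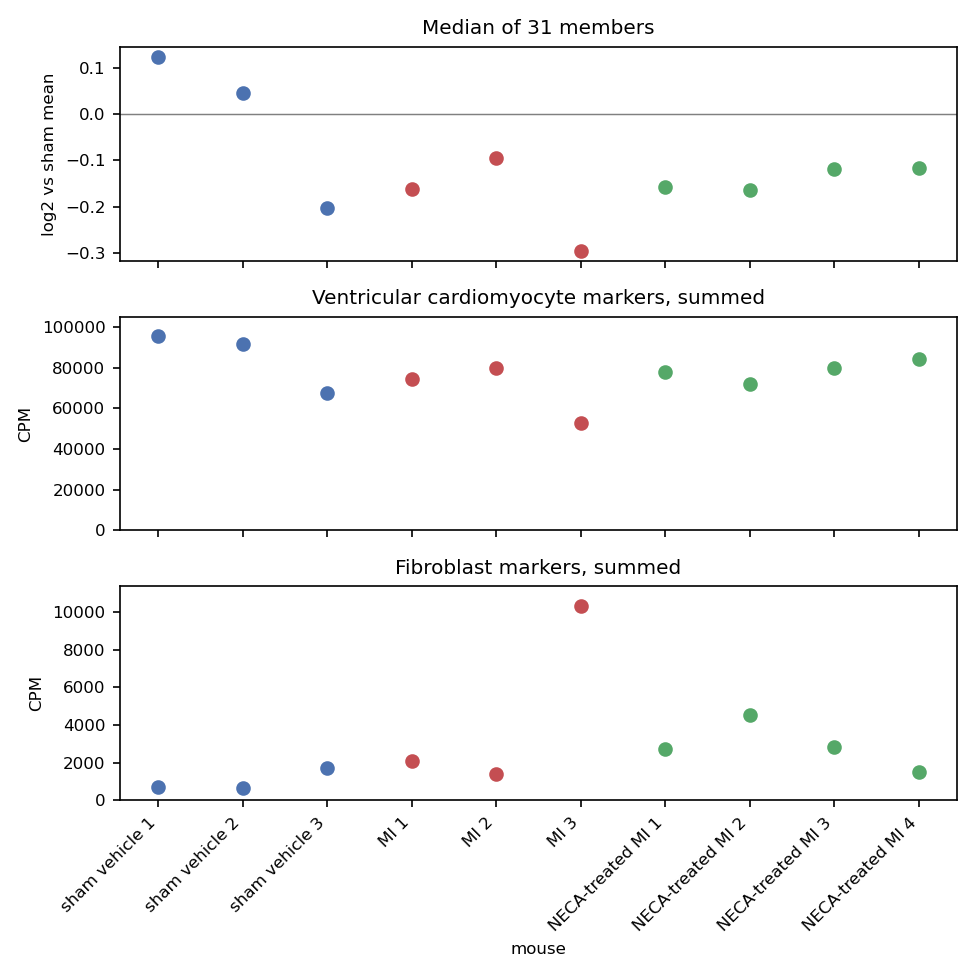
Points are single mice, coloured by group (blue sham vehicle, red MI, green NECA-treated MI). The top panel gives the median member relative to the sham vehicle mean, from -0.30 to 0.12 on the log2 scale, and the middle and lower panels the summed CPM of 11 ventricular muscle and 8 fibroblast markers, where MI mouse 3 had 52670 and 10330 CPM.

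Among the transporters, Slc2a4 (GLUT4), the insulin-responsive glucose carrier of muscle, had 459.0, 362.0 and 325.5 CPM in sham vehicle mice 1 to 3. It had 372.3, 357.7 and 224.6 CPM in MI mice 1 to 3, and 314.7, 357.3, 351.9 and 411.8 CPM in NECA-treated mice 1 to 4. The 3 groups overlapped, MI mouse 3 being the lowest, and the log2 fold change was -0.26 ± 0.20 (SE) in MI against sham vehicle mice and 0.17 ± 0.18 in NECA-treated MI against MI mice (edgeR adjusted p = 0.605 and 0.911). Without MI mouse 3 they were -0.06 and -0.03. Slc2a1 (GLUT1), the widespread carrier, had 16.7, 13.1 and 19.1 CPM in sham vehicle, 15.2, 15.6 and 10.3 CPM in MI and 15.2, 15.7, 19.1 and 13.8 CPM in NECA-treated mice. Its groups overlapped too, and all ligated against sham vehicle mice gave -0.15 ± 0.25 (edgeR adjusted p = 0.896), or -0.0054 without sham vehicle mouse 3 and -0.06 without MI mouse 3. Slc16a3 (MCT4), which exports lactate from glycolytic cells, had 0 to 8 counts per library. In the deeper libraries set aside, relative to their totals, it had 1.5 CPM in MI mouse 2 and 12.3 CPM in MI mouse 3 (exact Poisson 95% intervals 1.1 to 2.0 and 11.1 to 13.7, counting error only), so the libraries of these 2 infarcted hearts differed by more than counting error.

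Upper glycolysis runs from hexokinase to triose phosphate isomerase, and 7 of its 8 members had a fold below 0 in MI against sham vehicle mice. Hk2 (ENSMUSG00000000628), the insulin-responsive hexokinase of muscle, had 334.4, 290.7 and 237.4 CPM in sham vehicle mice 1 to 3. MI mice had 236.6, 241.8 and 177.6 CPM and NECA-treated mice 309.0, 260.1, 306.8 and 293.6 CPM. All 4 NECA-treated mice lay above all 3 MI mice, while the sham vehicle mice overlapped with both groups. The log2 fold change was 0.42 ± 0.16 for NECA-treated MI against MI (unadjusted p = 0.0181, edgeR adjusted p = 0.793) and -0.39 ± 0.17 for MI against sham vehicle (adjusted p = 0.382), and the MI mice are shared by both. Without MI mouse 3 they were 0.29 and -0.26, and the former was 0.18 on the deposited log2(TPM + 1) scale.

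Tpi1 (ENSMUSG00000023456), triose phosphate isomerase, which makes the pair of triose phosphates interchangeable, had 769.9, 688.7 and 517.3 CPM in sham vehicle mice, 539.3, 540.4 and 433.2 CPM in MI mice and 513.2, 513.2, 524.3 and 571.4 CPM in NECA-treated mice. Sham vehicle mice 1 and 2 lay above all 7 ligated mice and sham vehicle mouse 3 among them. The log2 fold change for all ligated against sham vehicle mice was -0.35 ± 0.15 (unadjusted p = 0.0283, edgeR adjusted p = 0.435). Pfkl, the liver-type subunit of phosphofructokinase, the main control point of the chain, had 129.5, 120.4 and 99.9 CPM in sham vehicle, 95.5, 102.5 and 86.5 CPM in MI and 96.9, 127.7, 91.9 and 104.4 CPM in NECA-treated mice. The groups overlapped (log2 fold change -0.22 ± 0.14 for all ligated against sham vehicle, adjusted p = 0.627).

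The other upper members were Hk1, Gpi1, Pfkm, Pfkp and Aldoa. Hk1, the hexokinase found in most tissues, had 213.8, 171.2 and 147.0 CPM in sham vehicle, 158.9, 148.2 and 155.1 CPM in MI and 170.5, 186.5, 174.2 and 163.5 CPM in NECA-treated mice. After TMM scaling each NECA-treated mouse lay above each MI mouse, with a log2 fold change of 0.17 ± 0.15 (edgeR adjusted p = 0.876). Gpi1, glucose phosphate isomerase, had the smallest coefficient of variation of all members over the 10 mice (6.39%), from 425.6 to 524.8 CPM. Pfkm, the muscle phosphofructokinase subunit, had 925.8, 919.6 and 701.8 CPM in sham vehicle, 801.8, 864.7 and 523.4 CPM in MI and 810.3, 756.1, 786.9 and 903.4 CPM in NECA-treated mice, MI mouse 3 being the lowest. In Pfkp, the platelet form of that subunit, the same mouse was the highest, with 29.5, 35.7 and 68.6 CPM in MI against 50.02, 54.9 and 47.8 CPM in sham vehicle and 50.4, 55.6, 56.3 and 50.2 CPM in NECA-treated mice. Aldoa, the muscle aldolase, ran from 1689 to 2353 CPM.

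The bifunctional enzymes of the Pfkfb family make and break down fructose 2,6-bisphosphate, which activates phosphofructokinase. Pfkfb2, the heart isoform, had 93.2, 59.8 and 72.01 CPM in sham vehicle, 81.3, 57.9 and 81.8 CPM in MI and 65.7, 59.5, 60.7 and 67.0 CPM in NECA-treated mice. These groups overlapped, with -0.13 ± 0.16 for all ligated against sham vehicle mice and -0.23 ± 0.18 between the NECA-treated MI and MI mice (log2, edgeR adjusted p = 0.831 and 0.856). Pfkfb3, the isoform induced by hypoxia, had 11.8, 8.19 and 28.7 CPM in sham vehicle, 20.5, 17.8 and 13.2 CPM in MI and 30.4, 30.6, 7.80 and 14.8 CPM in NECA-treated mice, the widest spread of any tested member (coefficient of variation 48.1%). Its 95% interval for all ligated against sham vehicle, -0.82 to 1.22 on the log2 scale, covers a 2-fold difference upward, and the fold was 0.20 with all mice and 0.94 without sham vehicle mouse 3. Pfkfb1, the isoform of liver and skeletal muscle, ran from 4.70 to 26.6 CPM.

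**Figure D3:**
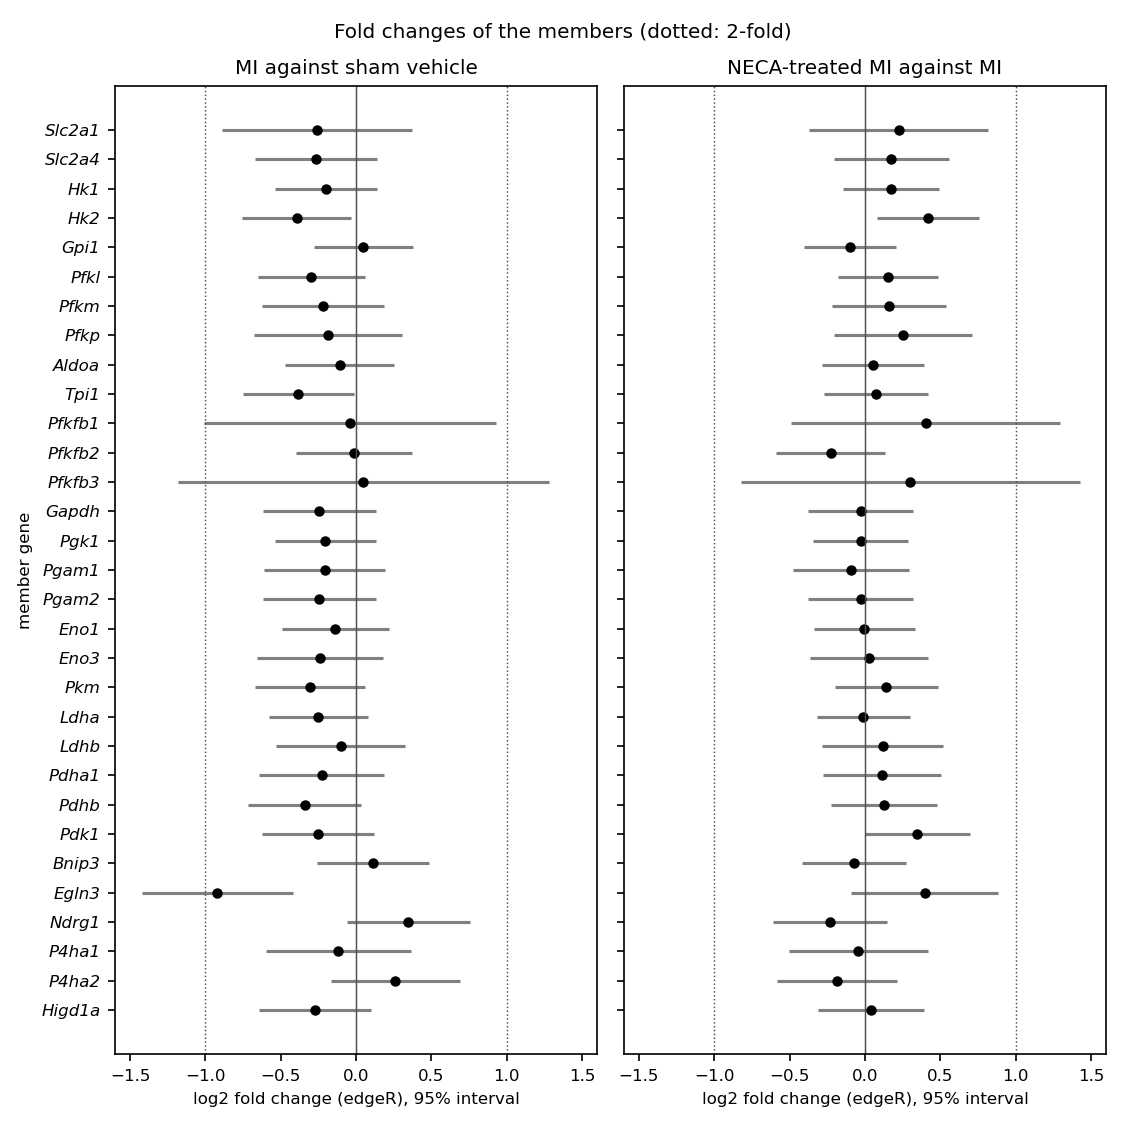
Points are log2 fold changes of the 31 tested members and bars their 95% intervals from the edgeR fit, for MI against sham vehicle mice (left, 3 and 3 mice) and NECA-treated MI against MI mice (right, 4 and 3 mice); dotted lines mark 2-fold. On the left Egln3 lies at -0.92 with an interval of -1.42 to -0.42, and 26 of 31 points are below 0.

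In lower glycolysis, all 7 members had a fold below 0 in MI against sham vehicle mice, from -0.14 (Eno1) to -0.31 (Pkm), and the sham vehicle and MI mice overlapped in each. Without sham vehicle mouse 3, Eno1 was at 0.04, and without MI mouse 3, Pkm was at -0.17. Gapdh, which oxidises glyceraldehyde 3-phosphate and often serves as a reference gene, had 3694, 3463 and 2528 CPM in sham vehicle, 2736, 2816 and 2629 CPM in MI and 2633, 2648, 2484 and 2920 CPM in NECA-treated mice. Sham vehicle mice 1 and 2 lay above every ligated mouse, mouse 3 within them, and all ligated against sham vehicle gave a log2 fold change of -0.26 ± 0.15 (edgeR adjusted p = 0.58), or -0.41 without that mouse. Pgam2, the muscle phosphoglycerate mutase, had 522.7, 457.8 and 332.1 CPM in sham vehicle, 342.0, 368.8 and 397.5 CPM in MI and 366.7, 311.8, 357.1 and 412.8 CPM in NECA-treated mice, the same split of the sham vehicle mice (-0.26 ± 0.15, adjusted p = 0.579, or -0.43 without mouse 3).

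Pkm, pyruvate kinase of muscle and most other tissues, had 1145, 1106 and 917.1 CPM in sham vehicle, 944.6, 928.2 and 688.8 CPM in MI and 913.5, 976.2, 912.6 and 963.5 CPM in NECA-treated mice. MI mouse 3 stood below the rest, and NECA-treated MI against MI gave 0.14 ± 0.17 (log2, edgeR adjusted p = 0.918), or 0.0076 without that mouse. Pgk1, phosphoglycerate kinase, ran from 285.9 to 388.4 CPM in sham vehicle, 267.8 to 307.6 CPM in MI and 258.5 to 297.0 CPM in NECA-treated mice. Pgam1, the mutase form of other tissues, had 57.9, 60.6 and 74.2 CPM in sham vehicle, 50, 43.5 and 73.3 CPM in MI and 49.6, 57.2, 48.5 and 54.2 CPM in NECA-treated mice. Each NECA-treated mouse lay below each sham vehicle mouse, with a fold of -0.30 ± 0.18 (log2, edgeR adjusted p = 0.839), or -0.18 without sham vehicle mouse 3. Eno1, the enolase of most tissues, had 137.3, 167.9 and 214.6 CPM in sham vehicle, 151.8, 167.1 and 155.1 CPM in MI and 151.3, 147.3, 178.5 and 152.7 CPM in NECA-treated mice, with the highest level in sham vehicle mouse 3. Eno3, the muscle enolase, had 1254, 1338 and 895.8 CPM, 1024, 1190 and 739.6 CPM, and 981.6, 901.8, 974.2 and 1153 CPM in the same order, with the lowest level in MI mouse 3. Gapdh, Eno1, Pgam1, Ldha and Pkm have processed pseudogenes that can share reads with them, so their values are uncertain to that extent.

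At the fate of pyruvate, Ldha was the only member whose ligated mice did not overlap with the sham vehicle mice after TMM scaling. All 7 ligated mice lay below the 3 sham vehicle mice. Ldha (ENSMUSG00000063229), the lactate dehydrogenase subunit that predominates in glycolytic muscle, had 587.5, 602.7 and 514.4 CPM in sham vehicle mice. MI mice had 479.4, 481.4 and 471.7 CPM and NECA-treated mice 495.6, 455.2, 442.9 and 502.4 CPM. The gap between the groups was small beside the spread of the sham vehicle mice, and relative to library totals it closed. On that scale MI mouse 3, at 523 CPM, lay above sham vehicle mouse 1, with 599 of 1166063 counts. The deeper libraries of MI mice 2 and 3 had 539 and 570 CPM there, against 445 and 523 CPM in the compared libraries. The log2 fold change was -0.26 ± 0.13 for all ligated against sham vehicle (edgeR adjusted p = 0.53). A lower level in every ligated mouse was found for 1.83% of all genes, and for either direction for 3.64%. Its heart counterpart Ldhb had 1325, 1169 and 852.4 CPM in sham vehicle, 1098, 1288 and 731.1 CPM in MI and 1063, 1078, 1169 and 1201 CPM in NECA-treated mice, with overlap and the lowest levels in sham vehicle mouse 3 and MI mouse 3.

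Pdhb, the beta subunit of the first enzyme of pyruvate dehydrogenase, had 496.3, 480.7 and 371.1 CPM in sham vehicle, 349.1, 426.8 and 289.4 CPM in MI and 356.3, 351.8, 401.3 and 437.4 CPM in NECA-treated mice, with overlap (-0.28 ± 0.15 for all ligated against sham vehicle, log2, edgeR adjusted p = 0.552). Its partner Pdha1 ran from 488.7 CPM in MI mouse 3 to 932.7 CPM in sham vehicle mouse 1. Pdk1, a kinase that switches the complex off and a hypoxia target, had 157.9, 134.3 and 130.1 CPM in sham vehicle, 140.2, 129.3 and 84.6 CPM in MI and 148.1, 160.6, 148.2 and 142.9 CPM in NECA-treated mice. The NECA-treated mice lay above the MI mice without overlap, and the fold was 0.35 ± 0.17 (log2, unadjusted p = 0.051, edgeR adjusted p = 0.819), or 0.15 without MI mouse 3. With Hk1 and Hk2 this made 3 members higher in every NECA-treated mouse than in every MI mouse and 0 lower, on TMM-scaled levels. Of all genes, 3.88% were higher in that way and 7.49% apart in either direction. Relative to library totals, only Hk2 of these 3 members stayed apart. NECA-treated mouse 4 had 166 counts of Hk1 and 145 of Pdk1 in a total of 1061866. MI mouse 1 had 178 and 157 in a total of 1125716.

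**Figure D4:**
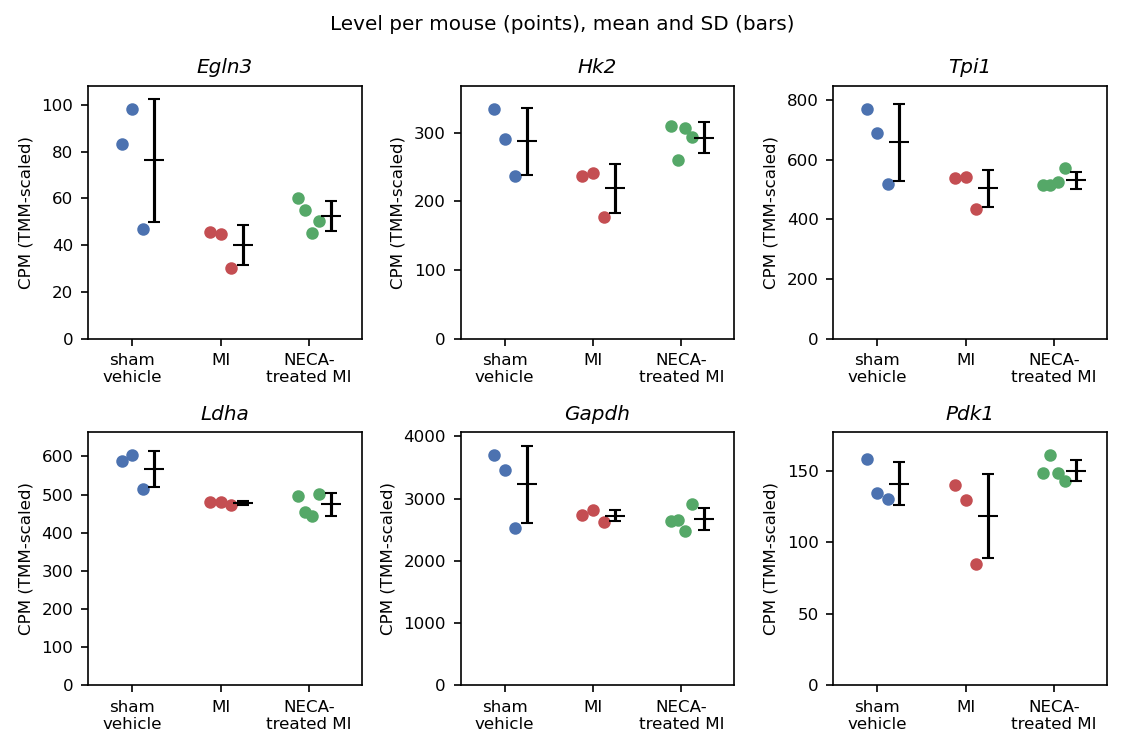
CPM after TMM scaling in each mouse (points), with the group mean and SD (bars), for Egln3, Hk2, Tpi1, Ldha, Gapdh and Pdk1. All 7 ligated mice lie below the 3 sham vehicle mice for Ldha, from 442.9 to 502.4 CPM, and sham vehicle mouse 3 lies below sham vehicle mice 1 and 2 in all 6 panels.

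Of the hypoxia targets, Egln3 came nearest to the threshold, and its level was lower, not higher, after ligation. Egln3 (ENSMUSG00000035105) encodes the prolyl hydroxylase PHD3, which is induced by hypoxia-inducible factors and feeds back on them. It had 83.4, 98.3 and 47.0 CPM in sham vehicle mice 1 to 3, 45.5, 44.6 and 30.1 CPM in MI mice 1 to 3, and 60.1, 54.8, 45.1 and 50.2 CPM in NECA-treated mice 1 to 4. The MI mice lay below the sham vehicle mice by a narrow margin at sham vehicle mouse 3, and the NECA-treated mice overlapped with both groups. The log2 fold change for MI against sham vehicle was -0.92 ± 0.24, with a 95% interval of -1.42 to -0.42 (unadjusted p = 0.00109, edgeR adjusted p = 0.229). For all ligated against sham vehicle it was -0.72 ± 0.19 (adjusted p = 0.24), and for NECA-treated MI against MI 0.40 ± 0.23 (adjusted p = 0.835), or 0.22 without MI mouse 3.

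The call on Egln3 turned on sham vehicle mouse 3 and on the count filter. Without sham vehicle mouse 3 the fold for MI against sham vehicle was -1.19 (edgeR adjusted p = 0.00887), and with no count filter -0.93 (adjusted p = 0.0032). With sham vehicle mouse 3 and MI mouse 3 both left out, a choice made after seeing the data, it was -1.02 (adjusted p = 0.0034), and -0.91 (adjusted p = 0.000361) for all ligated against sham vehicle. In that fit 4 members fell in all ligated against sham vehicle mice, Egln3, Gapdh, Pgam2 and Tpi1, and 243 of all genes passed in place of 10. Leaving out these mice took out the 2 libraries with the highest sums of atrial markers, and left 2 sham vehicle mice, whose median member was higher than that of the third.

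The remaining hypoxia targets varied without a common direction. Higd1a, a mitochondrial protein induced by hypoxia, had 85.3, 100.7 and 80.1 CPM in sham vehicle, 72.3, 83.6 and 64.8 CPM in MI and 76.9, 58.0, 87.5 and 79.8 CPM in NECA-treated mice, with overlap (-0.25 ± 0.15 for all ligated against sham vehicle, log2, edgeR adjusted p = 0.579). Ndrg1, a stress-responsive gene that hypoxia raises in many cells, was the 1 tested member that was higher in every MI mouse (50, 59.1 and 54.5 CPM) than in every sham vehicle mouse (42.2, 42.6 and 43.4 CPM). NECA-treated mice had 53.6, 55.6, 39.0 and 35.5 CPM, 2 of them below the sham vehicle mice. Relative to library totals, Ndrg1 had 38.6 CPM in the deeper library of MI mouse 2 and 54.5 CPM in the compared library. The former lay below sham vehicle mouse 3, with 59 of 1272475 counts. The fold of Ndrg1 for MI against sham vehicle was 0.35 ± 0.20 (log2, edgeR adjusted p = 0.481). In that comparison 1 tested member lay wholly above and 2, Egln3 and Ldha, wholly below, where 7.14% and 7.12% of all genes did. In NECA-treated MI against sham vehicle, Ldha and Pgam1 lay wholly below, where 4.29% of all genes did. These counts use the TMM-scaled levels, and relative to library totals Ldha overlapped in the former comparison and Pgam1 in the latter.

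Bnip3, a mitophagy receptor, ran from 61.9 to 97.1 CPM, P4ha1 and P4ha2, collagen prolyl hydroxylase subunits, from 27.9 to 47.9 CPM and from 27.9 to 48.9 CPM, and their groups overlapped in all 4 comparisons. Adm, the vasodilator peptide adrenomedullin, had 2 to 8 counts per library except 17 in sham vehicle mouse 3 (13.4 CPM relative to the library total, exact Poisson 95% interval 7.78 to 21.4). On the same scale, the deeper libraries of MI mice 2 and 3 had 7.55 and 6.04 CPM of Adm and 5.69 and 4.75 CPM of Ankrd37, an ankyrin repeat protein induced by hypoxia. Car9, a carbonic anhydrase that many hypoxic tumours express, was at 0 counts in every compared library except NECA-treated mouse 2, with 2 counts. A count of 0 in the smallest of these libraries allows up to 3.13 CPM, taken as 3 counts (3.84 CPM by the exact two-sided 95% interval). In the deeper libraries it had 5 and 10 counts, or 0.163 and 0.369 CPM.

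Several steps are served by 2 isoforms, one of heart or muscle and one of other cells, and their ratio within a library does not depend on scaling between libraries. It was taken as the log2 ratio of counts for 6 pairs and compared by two-sided exact permutation tests over mice, 12 tests in all. The smallest p the design allows is 0.0167 for 7 against 3 mice and 0.0571 for 4 against 3. The latter cannot pass, and the former cannot for a single ratio once adjusted over the 12 tests, so the adjusted p, 1 in each, says little about whether the ratios differed.

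Ldha to Ldhb had the smallest p for all ligated against sham vehicle. It was -1.17, -0.95 and -0.73 in sham vehicle, -1.20, -1.42 and -0.63 in MI and -1.10, -1.24, -1.40 and -1.26 in NECA-treated mice, a mean of -1.18 ± 0.27 (SD, n = 7) against -0.95 ± 0.22 (n = 3; exact permutation p = 0.25). The difference was -0.23, and -0.11 without sham vehicle mouse 3. MI mouse 3 had the highest value of all, and sham vehicle mouse 3 the second. Hk1 to Hk2 was -0.64, -0.76 and -0.69 in sham vehicle, -0.57, -0.70 and -0.20 in MI and -0.86, -0.48, -0.82 and -0.84 in NECA-treated mice. MI mouse 3 was highest here as well, and the 4 NECA-treated mice averaged -0.75 ± 0.18 against -0.49 ± 0.26 in the 3 MI mice (SD, exact permutation p = 0.171), a difference of -0.26, or -0.11 without MI mouse 3.

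Pfkp to Pfkm was -4.20, -4.06 and -3.87 in sham vehicle, -4.75, -4.58 and -2.92 in MI and -4.00, -3.76, -3.79 and -4.16 in NECA-treated mice, so the MI mice held both the lowest and the highest values. Eno1 to Eno3 was -3.19, -2.99 and -2.06 in sham vehicle mice and from -2.91 to -2.25 in the 7 ligated mice. Pgam1 to Pgam2 was -3.17, -2.91 and -2.16 in sham vehicle mice and from -3.07 to -2.43 in ligated mice. Sham vehicle mouse 3 had the highest value of all 10 mice in both pairs. Slc2a1 to Slc2a4 ran from -4.75 to -4.07 in sham vehicle and from -4.85 to -4.18 in ligated mice.

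**Figure D5:**
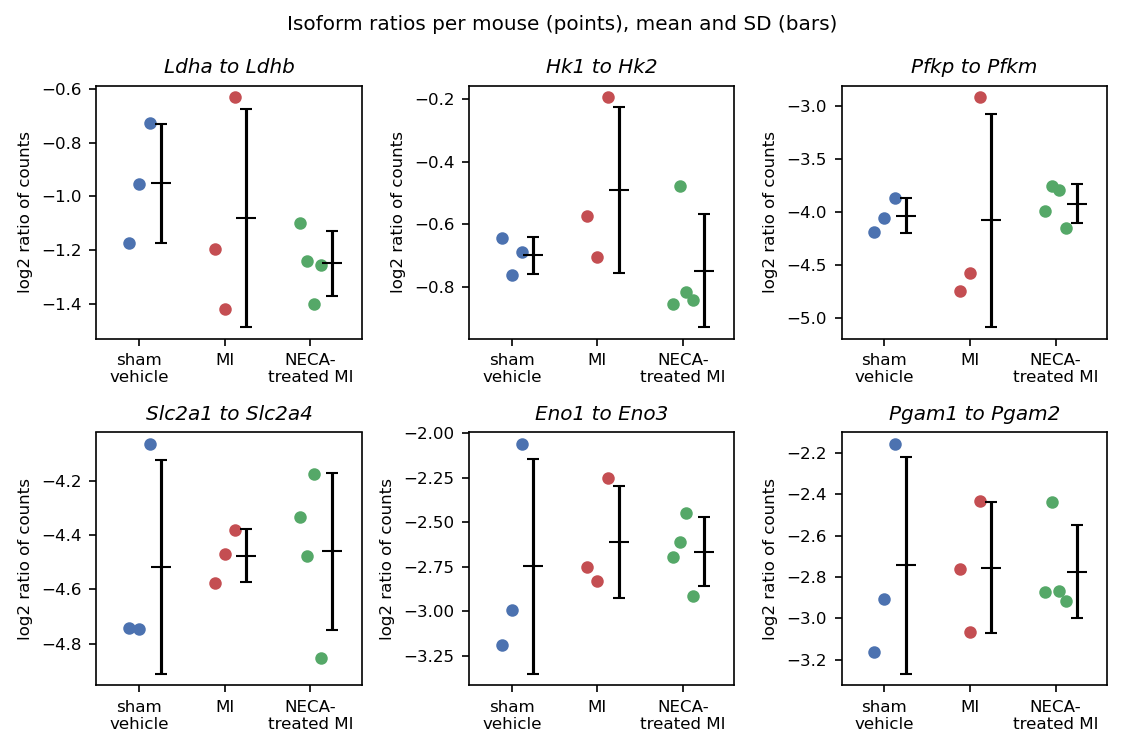
Log2 ratio of counts of 6 isoform pairs in each mouse (points), with the group mean and SD (bars). MI mouse 3 is the highest of 10 mice for Ldha to Ldhb (-0.63), Hk1 to Hk2 (-0.20) and Pfkp to Pfkm (-2.92), and sham vehicle mouse 3 for Eno1 to Eno3 (-2.06) and Pgam1 to Pgam2 (-2.16).

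Other genes of these pathways were taken as 7 lists with 105 symbols, of which 83 were tested. None passed in any of the 4 comparisons (edgeR). For all ligated against sham vehicle 56 had a fold below 0 and 27 above. Of these, 7 and 4 had an unadjusted edgeR p under 0.05. Over all genes 5.04% had such a p with a fold below 0 and 4.91% with a fold above. Folds below 0 were found for 10 of 10 genes of pyruvate entry to mitochondria, 15 of 19 of glycogen, 6 of 7 of the pentose phosphate path, 5 of 7 other glycolytic isoforms and regulators, 4 of 4 other hexose and monocarboxylate transporters and 6 of 9 of the factor machinery, where 52.4% of all genes were below 0. Of the other hypoxia-induced genes, 17 of 27 were above 0.

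Bpgm, which makes 2,3-bisphosphoglycerate, the regulator of haemoglobin in red cells, had 30.4, 30.3 and 43.4 CPM in sham vehicle, 10.7, 29.0 and 21.6 CPM in MI and 16.8, 15.7, 24.3 and 12.8 CPM in NECA-treated mice. After TMM scaling the ligated mice lay below the sham vehicle mice without overlap, as they did for 1.83% of all genes. Relative to library totals they overlapped. MI mouse 2 had 26 of 971760 counts and sham vehicle mouse 1 had 31 of 1166063. The log2 fold change for all ligated against sham vehicle was -0.90 ± 0.25 (unadjusted p = 0.00149, edgeR adjusted p = 0.24). Erythroid markers had 1267 to 3442 CPM in sham vehicle, 734.8 to 2807 CPM in MI and 799.1 to 935.0 CPM in NECA-treated mice, and their part was not tested. Ndufa4l2, a hypoxia-induced mitochondrial protein, had 7.85, 9.01 and 3.67 CPM in sham vehicle, 13.4, 24.5 and 29.1 CPM in MI and 12.01, 15.7, 13.0 and 12.8 CPM in NECA-treated mice. Every ligated mouse lay above every sham vehicle mouse, as it did for 1.81% of all genes. The fold was 1.35 ± 0.34 (log2, unadjusted p = 0.00063, edgeR adjusted p = 0.214). Pericytes also express it. Summed smooth muscle and pericyte markers ran from 523.2 to 606.0 CPM in sham vehicle and from 656.3 to 964.2 CPM in MI mice. In NECA-treated mice they ran from 618.9 to 803.9 CPM. Of the 5 tested markers of this list, 4 had a fold above 0 and 1 below in MI against sham vehicle. For all ligated against sham vehicle it was 2 above and 3 below, so the sums did not stand for every marker. Their part was not tested.

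The genes of smallest p in the other lists had folds for all ligated against sham vehicle of -0.66 for the glycogen branching enzyme Gbe1, -0.42 for Dlat of the pyruvate dehydrogenase core, -0.61 for the glucose transporter Slc2a12, -0.72 for the ribose phosphate isomerase Rpia and 0.41 for Os9 (log2, edgeR adjusted p = 0.361, 0.474, 0.672, 0.558 and 0.443).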

How the data were processed

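Myocardial RNA of 10 mice was read as 12 libraries. The submitters' processing notes name FastQC 0.11.9, STAR and RSEM and the build GRCm39. Which annotation was used, and whether molecular identifiers or strand entered the counts, was not given in the sources used here.  Deposited by the authors were expected counts per gene, which the values show to be rounded to whole numbers, and a table of log2(TPM + 1), deposited by the authors after scaling by length, although 3′ reads do not grow with length. Of 57054 rows, 306 had values only in the 1st libraries of MI mice 2 and 3 and 101 lacked them only there. The 56647 complete rows were used, and 52029 of them matched a symbol of GENCODE M21. No column of values was left out, but those 1st libraries entered only as alternatives.

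The members, pathway lists, tests and the rule for genes described mouse by mouse were chosen with earlier results of these data known. That rule took, per role, the 2 members of smallest p for all ligated against sham vehicle and the 1 of smallest p for NECA-treated MI against MI, the isoform pairs, and 1 gene per pathway list. Ndrg1 and Hmox1 were named after their values were seen.

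The test on expected counts was that of edgeR 4.0.16 (R 4.3.3, filterByExpr, TMM, robust quasi-likelihood test, two-sided, Benjamini-Hochberg adjusted p under 0.05) in 1 fit over 10 mice. Errors of folds are SE, and 95% intervals come from the same fit. Isoform ratios were log2 of count plus 0.5 over count plus 0.5, tested in scipy 1.17.1. DESeq2 1.42.0, limma 3.58.1 on log2(TPM + 1), other scalings, filters and libraries, a replicate block and leaving out mice were alternatives. On counts simulated over 9505 genes, the test found 49% of 2-fold and 85% of 4-fold differences between MI and sham vehicle. Between NECA-treated MI and MI it found 43% and 93%. False calls were 13 and 5. More genes were changed in the simulation than passed in the data, which eases the adjusted threshold, so these shares may overstate recovery. The changed genes were drawn at random from all tested genes, so the shares do not measure recovery of the members. Labels name the mice separately.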

Additional observations from a re-analysis of the deposited data

Results flagged for a closer look

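In groups of 4 mice, a value was looked at again where 1 mouse lay far from the other 3 for the range of the group. Of 37 values of members and ratios in the NECA-treated mice, 3 were singled out so, and chance gives about 1 in 20. All 3 came from NECA-treated mouse 2. It had the lowest Pgk1 level, 259 CPM, where the group ran up to 297 CPM. It also had the highest Hk1 to Hk2 log2 ratio, -0.479, with a group lowest of -0.856, and the highest Pgam1 to Pgam2 log2 ratio, -2.44, with a group lowest of -2.92. Its fibroblast markers, 4508 CPM, were the highest of the NECA-treated mice, and their part in these values was not tested.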

How the results depend on the processing

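The count of members that passed was 0 in all 4 comparisons and remained so with summed or 1st libraries of MI mice 2 and 3, other scalings, DESeq2, limma and fits of the compared groups alone. It was 1 (Egln3) for MI against sham vehicle and 1 for all ligated against sham vehicle with no count filter, and ranged from 0 to 1 in both when each mouse was left out, the 1 coming without sham vehicle replicate 3. Of 20308 genes, 191 and 137 passed in these comparisons with no count filter. With sham vehicle mouse 3 and MI mouse 3 out together it was 1 member for MI against sham vehicle and 4 for all ligated. For NECA-treated MI against sham vehicle it was 5 (Egln3, Eno3, Gapdh, Pgam2 and Tpi1). In that fit 69, 243 and 242 of 9560 genes passed in the same order. The cause of these changes was not tested. Over all alternatives, all genes called ran from 0 to 191 for MI against sham vehicle, 0 to 8 for NECA-treated MI against MI, 0 to 242 for NECA-treated MI against sham vehicle and 1 to 243 for all ligated, against 7, 0, 1 and 10. With a replicate block the counts were 8, 0, 4 and 10, and 0 members. Whether mouse numbers pair the samples was looked at by correlating departures from the group mean. Of 9 same-numbered pairs, 2 correlated over 0.1 (-0.226 to 0.191), and 1 mouse correlated best with its own number. Departures cancel out within groups this small, so these correlations do not decide it.

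The median fold of the members in NECA-treated MI against MI was 0.07, but -0.04 with summed libraries and -0.01 without MI mouse 3. On log2(TPM + 1) the median of all genes in MI against sham vehicle moved from -0.01 to 0.10, and relative to it the members lay at -0.17. On that scale the sign turned in 10 of 31 members for all ligated against sham vehicle and in 5 for MI against sham vehicle, 4 for NECA-treated MI against MI and 9 between NECA-treated MI and sham vehicle mice. Among those described mouse by mouse for all ligated were Slc2a1 (0.098), Higd1a (0.015) and Pfkl (0.10). Slc2a1 had 0.078, and Slc2a4 in NECA-treated MI against MI -0.028, with both mice out. Leaving out each mouse gave -0.26 to 0.057 for Pfkfb2, -0.12 to 0.94 for Pfkfb3 (all ligated) and -0.025 to 0.30 for Slc2a4 (NECA-treated MI against MI).

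Most differences of isoform log2 ratios turned sign under some alternative. Ldha to Ldhb for all ligated (-0.34 to -0.11 when each mouse was left out) did not. With summed libraries, NECA-treated MI against MI gave -0.25 for Slc2a1 to Slc2a4, 0.019 for Eno1 to Eno3 and 0.085 for Pgam1 to Pgam2. As differences of log2(TPM + 1), that comparison gave 0.0036 for Hk1 to Hk2, -0.32 for Pfkp to Pfkm, -0.10 for Slc2a1 to Slc2a4 and 0.018 for Pgam1 to Pgam2, and all ligated against sham vehicle -0.084 for Hk1 to Hk2 and 0.014 for Pgam1 to Pgam2. Leaving out each mouse gave, for all ligated, -0.13 to 0.17 (Pfkp to Pfkm), -0.063 to 0.28 (Slc2a1 to Slc2a4), -0.12 to 0.45 (Eno1 to Eno3), -0.23 to 0.27 (Pgam1 to Pgam2) and -0.013 to 0.098 (Hk1 to Hk2). For NECA-treated MI against MI it gave -0.34 to 0.057 (Ldha to Ldhb), -0.17 to 0.74 (Pfkp to Pfkm), -0.078 to 0.15 (Slc2a1 to Slc2a4), -0.17 to 0.12 (Eno1 to Eno3) and -0.18 to 0.14 (Pgam1 to Pgam2).

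Depth limits the low members, since 3 counts in the smallest compared library amount to 3.13 CPM.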

Other observations

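MI mice 2 and 3 were each read in 2 libraries, which gives the members' levels again from the same animals. Over the 31 tested members the median log2 ratio of the 1st to the 2nd library was 0.02 in MI mouse 2, with single members from -0.92 (Pfkfb3) to 0.59 (Bnip3), and 0.10 in MI mouse 3, from -0.20 (Hk2) to 0.63 (Slc2a1). More than 0.5 either way separated the libraries in 7 members of MI mouse 2 and 2 of MI mouse 3. For Hk1, the 1st and 2nd libraries of MI mouse 2 had 80.3 and 137 CPM, while MI mouse 3 had 173 and 172 CPM. Egln3 had 34.4 and 41.2 CPM in MI mouse 2 and 31 and 33.3 CPM in MI mouse 3. These CPM are relative to library totals.

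Hmox1, which breaks down haem and is raised by hypoxia and oxidative stress, was named after its values were seen. It had 2.94, 4.10 and 8.08 CPM in sham vehicle mice, 14.3, 12.3 and 12.2 CPM in MI mice and 12.8, 19.6, 11.3 and 9.85 CPM in NECA-treated mice. After TMM scaling each ligated mouse lay above each sham vehicle mouse, as it did for 1.81% of all genes. The log2 fold change was 1.32 ± 0.37 (edgeR adjusted p = 0.24). These levels rest on few reads, since 3 counts in the smallest compared library amount to 3.13 CPM. Macrophage markers, which ran from 232.6 to 463.7 CPM in sham vehicle and from 395.6 to 1051 CPM in the ligated mice, overlapped, and their part was not tested.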
